A study of Mus musculus with 6 samples.

Results

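The genes described here are 32 genes of the endoplasmic reticulum (ER) stress response and of protein folding in the ER, out of 32564 genes with transcripts in the files. They were taken from a list of named genes and grouped by the branch of the stress response they belong to: 14 genes of the ATF6 and chaperone branch, 10 of the IRE1 branch with ER-associated degradation, and 8 of the PERK and ATF4 branch. The data are RNA sequencing of cells sorted as quiescent neural stem cells from the subependymal zone, the stem cell niche beside the lateral ventricles of the adult mouse brain. All mice carried the gfap:GFP transgene, green fluorescent protein driven by the promoter of Gfap, a gene of astrocytes and stem cells, and were 3 months old, of the strain written C56BL/6J in the labels. The antagomir group (3 libraries) received into the ventricles an oligonucleotide that blocks miR-204, and the vehicle group (3 libraries) received artificial cerebrospinal fluid (aCSF), both 3 days before the cells were taken. Titles and treatment labels give these groups, whereas the treatment protocol names the antagomir injection for all 6 samples, and that conflict was not settled here. No group with a control oligonucleotide is named, and what comes from blocking miR-204 cannot be told apart from what any oligonucleotide would do. Nothing says whether a replicate is 1 animal or a pool; the p-values therefore reflect sample-to-sample spread alone, and part of it may be technical.

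Secreted and membrane proteins fold in the ER with the help of chaperones, lectins and enzymes that form disulfide bonds, and proteins that fail to fold are moved back to the cytosol and degraded. Membrane sensors watch this process: ATF6 is cut to release a transcription factor that raises chaperone genes, IRE1 splices the Xbp1 mRNA so that it encodes an active factor, and PERK phosphorylates eIF2alpha, which slows translation while the factor ATF4 is made. In the brain the pathway is known from neurodegeneration and from secretory cells, and the ATF4 arm also responds to amino acid shortage and oxidative stress.

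The 32 genes were all measured above the low-count filter and none passed edgeR's quasi-likelihood test between antagomir and vehicle libraries at an adjusted p of 0.05. Those are 0 of 32, where 0 of 15012 genes tested passed, a background of 0%. The smallest adjusted p among the 32 was 0.949. The members under 0.05 before adjustment were 2, Dnajb11 and Derl2, both lower, where 4.1% of all genes were under that p, 1.93% lower and 2.18% higher. DESeq2 called 0 members and had 2 at an unadjusted p under 0.05, where 5.2% of all genes tested were under that p. Without antagomir replicate 3 edgeR had 7, where 3.56% of all genes tested were under that p. It had 1 without vehicle replicate 2 (4.31% of all genes) and 1 without vehicle replicate 3 (3.22%). Of the 14 chaperone branch genes 11 had negative fold changes (median log2 fold change -0.19), of the 10 IRE1 branch genes 6 had (median -0.039), and of the 8 PERK and ATF4 branch genes 0 had (median 0.23). Over all genes tested the median was -0.0062, with 49.1% positive and 50.9% negative. In simulated counts with the spread of these libraries, edgeR's test recovered 1 of 50 genes changed 1.5-fold and 9 of 50 changed 2-fold. The changed genes were drawn at random from the tested genes, without those of low count. Most changes of these sizes were thus missed among them, and the rate for the 32 genes themselves was not simulated.

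**Figure D1:**
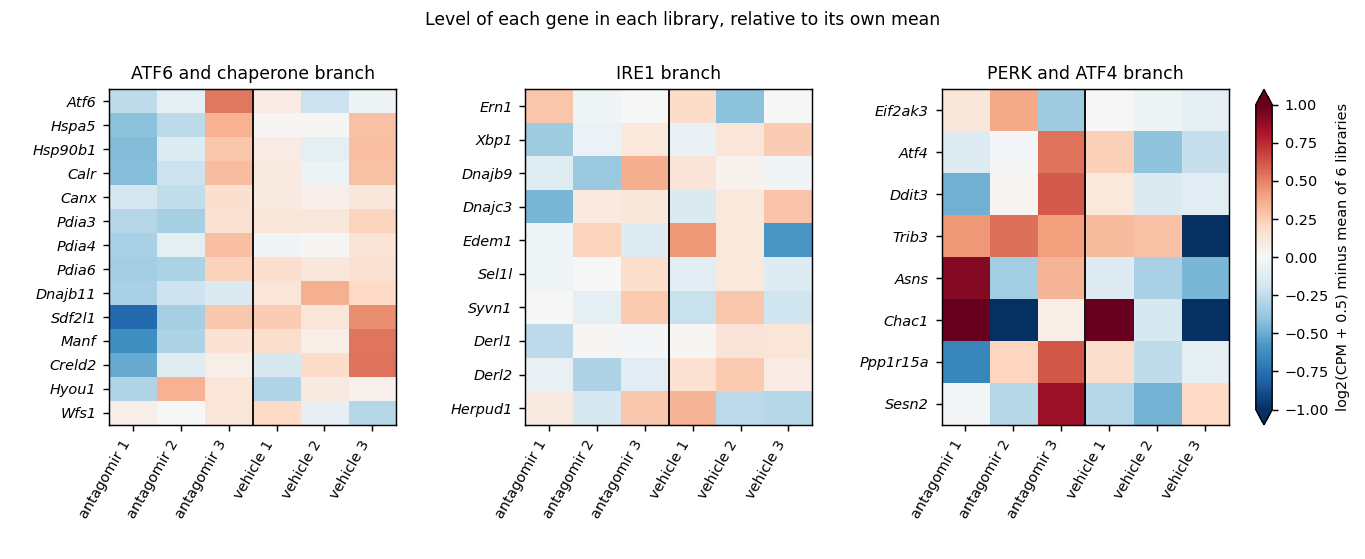
Each row is a gene and each column a library; colour gives log2(CPM + 0.5) minus the gene's mean over the 6 libraries, with the antagomir libraries left of the black line. Most rows of the chaperone branch are lowest in antagomir replicate 1, and 4 of the 8 PERK and ATF4 branch rows are highest in antagomir replicate 3.

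The libraries held 14866453 to 19694409 estimated counts, and 3 counts, the floor used here, were worth 0.153 to 0.203 CPM (counts scaled to library size), a limit that covers counting error only. Markers of other cells were present. The sum over 12 astrocyte and quiescent stem cell genes was 9632 to 13178 CPM in antagomir libraries and 12852 to 13914 CPM in vehicle libraries, with 11 of 12 genes negative. That over 10 oligodendrocyte genes was 14992 to 21252 CPM in antagomir libraries and 9334 to 19516 CPM in vehicle libraries, with 10 of 10 positive. The sum over 12 microglia genes was 189 to 414 CPM in antagomir libraries and 242 to 2656 CPM in vehicle libraries, with 2656 CPM in vehicle replicate 1 alone and a log2 fold change below 0 in 12 of 12 genes. The sum over 20 immediate early and dissociation genes, which answer to tissue handling, was 10218 to 22832 CPM in antagomir libraries and 10638 to 13348 CPM in vehicle libraries, with 19 of 20 genes positive. Genes of dividing cells and neuroblasts, in cells sorted as quiescent, also had mostly positive fold changes. The sum over 10 genes of activated stem cells and cell division was 449 to 565 CPM in antagomir libraries and 187 to 525 CPM in vehicle libraries. Of these 8 of 10 were positive (median log2 fold change 0.99) and 0 were called. Without overlap 4 were higher and 1, Egfr, was lower (-0.50), where 5.06% of all genes tested were higher and 5.45% lower. The sum over 10 neuroblast genes was 1001 to 2406 CPM in antagomir libraries and 603 to 1556 CPM in vehicle libraries, with 10 of 10 positive (median 1.04) and 0 called. Of the oligodendrocyte precursor genes 6 of 7 were positive (median 0.67; 614 to 948 CPM in antagomir libraries and 458 to 798 CPM in vehicle libraries). Interferon genes were negative in 7 of 7 (median -2.15), with sums of 51.8 to 79.3 CPM in antagomir libraries and 77.0 to 488 CPM in vehicle libraries, the highest in vehicle replicate 1. Ependymal genes were negative in 8 of 8 (median -0.21; 1403 to 2337 CPM in antagomir libraries and 2000.3 to 2569 CPM in vehicle libraries). Choroid plexus genes were positive in 3 of 5 (60.7 to 139.7 CPM in antagomir libraries and 88.3 to 115 CPM in vehicle libraries) and endothelial genes in 1 of 4 (5.57 to 12.7 CPM in antagomir libraries and 8.13 to 22.7 CPM in vehicle libraries). No gene of these 11 lists was without counts in all libraries. Without overlap, 2 astrocyte and quiescent stem cell, 3 interferon and 1 ependymal gene were lower. Higher without overlap were 1 oligodendrocyte, 1 oligodendrocyte precursor and 1 immediate early and dissociation gene. In bulk samples, fewer cells of a type and less RNA per cell cannot be told apart, and the part of these cell types, of cell division and of handling in the values below was not tested.

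Levels scaled by transcript length (TPM) spanned from 702 for Hspa5 to 1.83 for Chac1, as means over the 6 libraries. The abundant members were folding machinery: Hspa5, which encodes the main ER chaperone BiP, was followed by the lectin chaperone gene Calr at 532 TPM, the disulfide isomerase gene Pdia4 at 345 TPM, the chaperone gene Hsp90b1 at 335 TPM and the disulfide isomerase gene Pdia3 at 326 TPM. The sixth was Ppp1r15a of the PERK branch, at 286 TPM. The genes of the 3 sensors stood low in this order, with 14.3 TPM for Eif2ak3 (PERK), 11.6 TPM for Atf6 and 3.70 TPM for Ern1 (IRE1). Trib3 (1.92 TPM) and Chac1, both targets of the ATF4 arm, were the lowest.

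**Figure D2:**
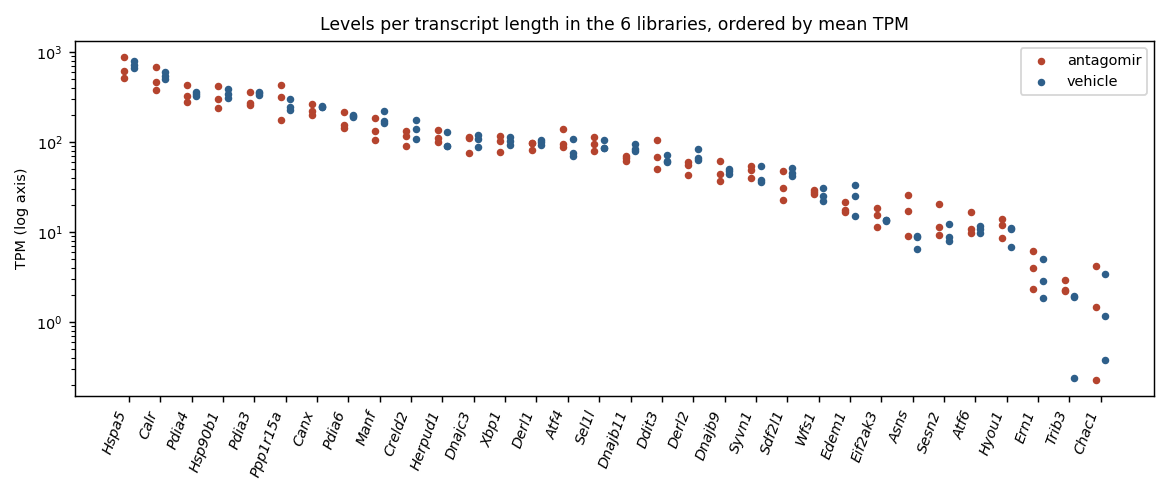
Levels in TPM on a log axis for the 32 genes, ordered by the mean over 6 libraries, with 1 point per library and the antagomir libraries left of the vehicle libraries at each gene. Hspa5 is at the top near 702 TPM and Trib3 and Chac1 are at the bottom, and for most genes the 2 groups' points overlap.

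Since the injected oligonucleotide was directed against miR-204, the 3′ untranslated regions (UTRs) of the 32 genes were searched for its seed match. The mature miRNA is shown, as RefSeq gives it in GRCm38.p6 (chromosome 19, 22750610 to 22750631, plus strand), with its seed (bases 2 to 8) in capitals, and below it every match found in a member, with the 7 matched bases (the 7mer-m8 site AAAGGGA) in capitals.
mmu-miR-204-5p: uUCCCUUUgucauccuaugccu
Atf6 7mer-m8, chr1:170709356-170709385, minus strand: agagtttgggtAAAGGGAttatctccagtt
Atf6 7mer-m8, chr1:170709025-170709054, minus strand: ccagactcagcAAAGGGActtggaggtcac
Edem1 7mer-m8, chr6:108856983-108857012, plus strand: atttttagtcaAAAGGGAgaaattataatc
Sel1l 7mer-m8, chr12:91809258-91809287, minus strand: ctcttattttaAAAGGGAttattgatcgga
Thus Atf6, Edem1 and Sel1l held a match in the 3′ UTR that GENCODE M21 (GRCm38) gives for the coding transcript with the highest TPM, which is 9.38% of the 32 genes, and 13.5% of 13818 tested protein-coding genes held one. The median 3′ UTR length was 788 bases for the members and 880.0 bases for all. None of the 32 held the 8mer AAAGGGAA, which 5.8% of all genes held. Atf6, with 2 matches, had a log2 fold change of 0.16 ± 0.23 (SE), Edem1 of -0.02 ± 0.26 and Sel1l of 0.09 ± 0.14, and none passed edgeR's test (adjusted p = 0.955, 0.994 and 0.958). A match is a description of letters and not of binding.

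In the chaperone branch, 11 of 14 genes had lower mean levels after the antagomir, with 0 past the test. The branch median of -0.19 was -0.43 without antagomir replicate 3 and -0.081 without antagomir replicate 1. The gene with the smallest p was Dnajb11, which encodes ERdj3, a co-chaperone that brings unfolded proteins to BiP (ENSMUSG00000004460.17, chromosome 16, 22857845 to 22879634 in GRCm38). Dnajb11 had 65.3, 70.7 and 73.8 CPM in antagomir libraries and 89.0, 105 and 93.7 CPM in vehicle libraries. Its groups did not overlap, with a gap of 15.2 CPM between the highest antagomir and the lowest vehicle library. The log2 fold change was -0.45 (95% interval -0.77 to -0.13; edgeR unadjusted p = 0.0113, adjusted p = 0.949), and it ranged from -0.50 to -0.38 when each library was left out in turn. Among all genes tested, 5.45% did not overlap and were lower, and among the 32 members there were 3, Dnajb11, Derl1 and Derl2.

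Manf encodes a secreted ER protein that is named a neurotrophic factor and is induced by ER stress (ENSMUSG00000032575.16, chromosome 9, 106838312 to 106891979). It had 44.0, 54.3 and 74.4 CPM in antagomir libraries and 76.4, 70.5 and 98.1 CPM in vehicle libraries. Antagomir replicate 3 lay inside the vehicle range and the other 2 antagomir libraries below it (log2 fold change -0.50, 95% interval -1.03 to 0.019, edgeR adjusted p = 0.949). Exons of Manf overlap those of Rbm15b on the same strand and Dcaf1 on the opposite strand, and the library kit does not mark strand, so its level is uncertain. Rbm15b held 867 to 1873 counts per library and Dcaf1 378 to 982, beside 723 to 1932 for Manf. Sdf2l1, a further partner of BiP, had 12.7, 17.5 and 26.9 CPM in antagomir libraries and 26.6, 24.2 and 30.7 CPM in vehicle libraries. The pattern over the libraries was like that of Manf, with antagomir replicates 1 and 2 below all vehicle libraries (log2 fold change -0.51, 95% interval -1.19 to 0.16, edgeR adjusted p = 0.949). Creld2, an ER stress-inducible protein with growth factor-like domains, had 64.1, 83.7 and 94.996 CPM in antagomir libraries and 81.3, 103 and 133 CPM in vehicle libraries. The groups overlapped, with vehicle replicate 3 highest (log2 fold change -0.39, edgeR adjusted p = 0.949).

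Hspa5 (ENSMUSG00000026864.13, chromosome 2, 34771970 to 34777547), whose product BiP binds unfolded chains and holds the sensors inactive, had 711, 786 and 1198 CPM in antagomir libraries and 952, 950.1 and 1157 CPM in vehicle libraries. The antagomir libraries held both the lowest and the highest value, so the groups overlapped across the whole vehicle range. Its mean was 898 ± 262 CPM in antagomir libraries and 1019.7 ± 119 CPM in vehicle libraries (SD, n = 3 each), and the log2 fold change of -0.18 had a 95% interval of -0.67 to 0.30. Hsp90b1, the ER member of the Hsp90 family, had 376, 462 and 615 CPM in antagomir libraries and 538, 477 and 626 CPM in vehicle libraries. Calr, the lectin chaperone calreticulin, had 386, 449 and 643 CPM in antagomir libraries and 557, 502 and 637 CPM in vehicle libraries. Both followed Hspa5, with the lowest value in antagomir replicate 1, a high value in antagomir replicate 3, and log2 fold changes of -0.18 and -0.20. Canx, the membrane-bound lectin chaperone calnexin, averaged 460.1 ± 71.7 CPM in antagomir libraries and 513 ± 11.5 CPM in vehicle libraries (SD, n = 3 each). The SD in antagomir libraries was larger than in vehicle libraries for Hspa5, Hsp90b1, Calr and Canx.

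Of the disulfide isomerases, which form and shuffle disulfide bonds, Pdia3 had 364, 352 and 493 CPM in antagomir libraries and 483, 480.3 and 517 CPM in vehicle libraries. Antagomir replicates 1 and 2 were below all vehicle libraries and replicate 3 was among them (log2 fold change -0.29, 95% interval -0.66 to 0.08, edgeR adjusted p = 0.949). Pdia6 had 168, 172 and 252 CPM in antagomir libraries and 241, 232 and 239 CPM in vehicle libraries. Here antagomir replicate 3 was the highest of all libraries and replicates 1 and 2 the lowest (log2 fold change -0.27). Pdia4 had 371, 436 and 572 CPM in antagomir libraries and 456, 469 and 507 CPM in vehicle libraries, with a log2 fold change of -0.05 that turned to 0.078 without antagomir replicate 1. Exons of Pdia3, Pdia6, Syvn1 and Ppp1r15a overlap those of another measured gene on the opposite strand (Catsper2, Atp6v1c2, Mrpl49 and Tulp2), so their levels are uncertain. The overlapping genes held 138 to 429, 2 to 34, 395 to 657 and 35 to 86 counts per library, in that order. The members held 5263 to 10192, 2569 to 4701, 1159 to 1760 and 3848 to 10000. Among these genes the overlapping gene was thus smallest beside Pdia6 and Ppp1r15a and largest beside Syvn1. Counts of the genes that overlap Manf, Derl2 and Ddit3 are given with those members.

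The sensor gene Atf6 (ENSMUSG00000026663.6, chromosome 1, 170704674 to 170867771) had 40.9, 45.8 and 70.4 CPM in antagomir libraries and 51.9, 42.1 and 47.1 CPM in vehicle libraries. Antagomir replicate 3 was highest and the other 2 antagomir libraries lay inside or below the vehicle range (log2 fold change 0.16, 95% interval -0.38 to 0.69, edgeR adjusted p = 0.955), and without replicate 3 the fold change was -0.11. Hyou1, which exchanges the nucleotide bound by BiP, averaged 22.7 ± 5.08 CPM in antagomir libraries and 20.8 ± 3.01 CPM in vehicle libraries, and Wfs1, an ER membrane protein whose loss causes Wolfram syndrome, averaged 59.5 ± 2.53 CPM in antagomir libraries and 55.4 ± 9.51 CPM in vehicle libraries (SD, n = 3 each). Those 3 genes had the positive fold changes of this branch, 0.16, 0.13 and 0.10.

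**Figure D3:**
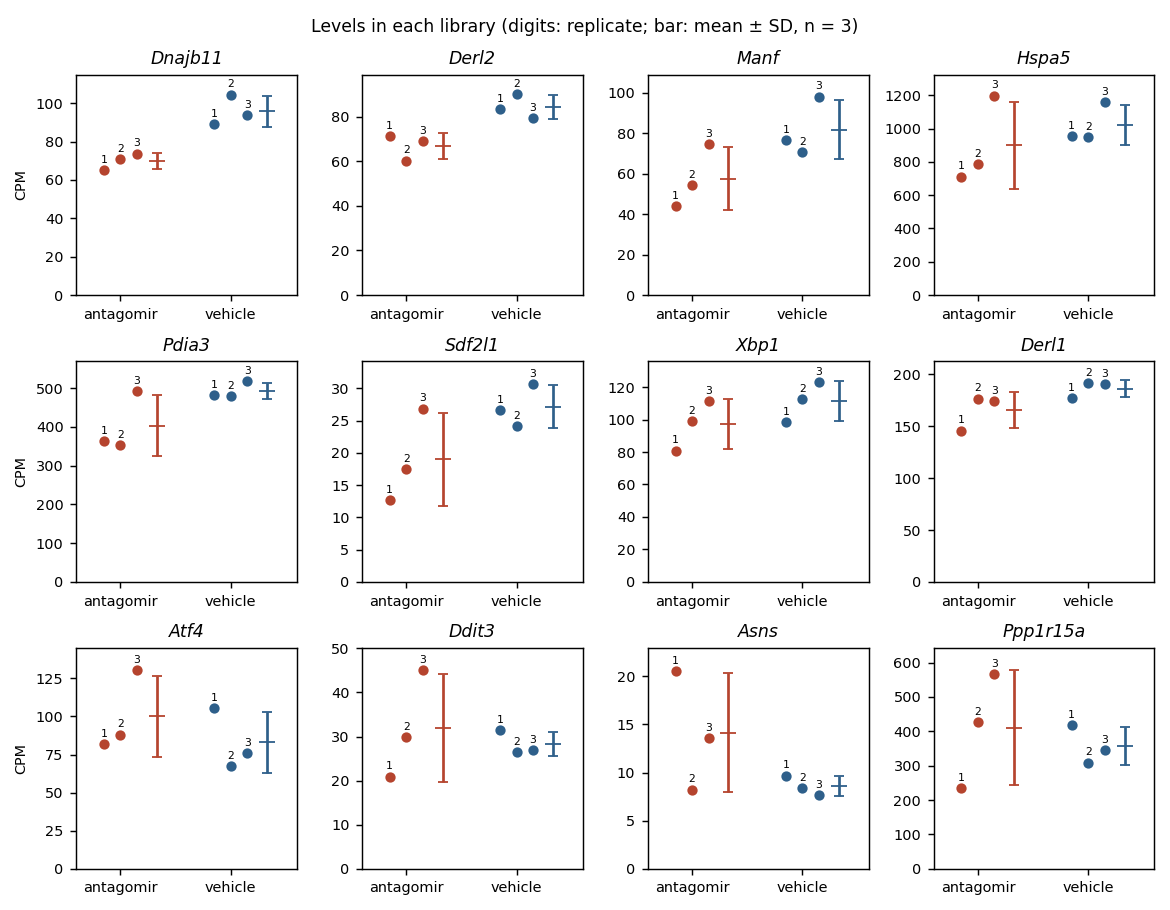
CPM of 12 of the genes in each library, antagomir left and vehicle right, with digits for the replicate and bars for the mean ± SD (n = 3 each); all axes start at 0. Dnajb11 and Derl2 have groups that do not overlap, Derl1 has a gap of 0.289 CPM, and in Hspa5, Ddit3 and Ppp1r15a antagomir replicate 3 is the highest library and replicate 1 the lowest.

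The promoters of chaperone genes are known for the ER stress response element, CCAAT and CCACG with 9 bases between them, to which ATF6 binds together with the factor NF-Y. Promoter windows (250 bases before to 50 after the start, RefSeq, GRCm38.p6) were held for 28 of the 32 genes, and not for Manf, Hyou1, Derl1 and Atf6. The full element, in that spacing and on either strand, was in 8 of these 28, in 0.137% of 27025 genes with a window and in 0.168% of tested genes. It was in 6 of 11 windows of the chaperone branch, in 2 of 9 of the IRE1 branch and in 0 of 8 of the PERK and ATF4 branch. They are shown with the 2 conserved ends in capitals (CGTGG and ATTGG where the element lies on the other strand), to show what these 8 promoters have in common.
Hspa5, chr2:34772017-34772051, plus strand: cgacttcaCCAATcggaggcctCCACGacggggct
Hsp90b1, chr10:86705525-86705664, minus strand: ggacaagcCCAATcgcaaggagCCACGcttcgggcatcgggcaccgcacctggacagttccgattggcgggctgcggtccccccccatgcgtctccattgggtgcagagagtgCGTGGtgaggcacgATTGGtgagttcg
Calr, chr8:84847067-84847101, minus strand: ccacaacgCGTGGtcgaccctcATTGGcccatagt
Canx, chr11:50325792-50325826, minus strand: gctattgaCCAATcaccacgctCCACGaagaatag
Pdia6, chr12:17266483-17266517, plus strand: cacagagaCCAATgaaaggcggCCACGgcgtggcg
Creld2, chr15:88819512-88819546, plus strand: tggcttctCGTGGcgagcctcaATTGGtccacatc
Dnajc3, chr14:118937819-118937853, plus strand: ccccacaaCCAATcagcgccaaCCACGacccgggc
Syvn1, chr19:6046524-6046558, plus strand: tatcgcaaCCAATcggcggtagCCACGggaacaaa
Hsp90b1 held 2 copies and the other 7 genes 1 each. In Hspa5 the element lay 65 to 47 bases before the RefSeq start. The stretch printed lies inside the GENCODE span of Hspa5 given above, since RefSeq and GENCODE place the start differently. Of the 8 genes, 7 had negative log2 fold changes, between -0.39 for Creld2 and -0.15 for Dnajc3, and Syvn1 had 0.10, with 0 past the test. Chaperone branch genes with a window but without the full element were Pdia3 (-0.29), Pdia4 (-0.05), Dnajb11 (-0.45), Sdf2l1 (-0.51) and Wfs1 (0.10). Whether the element bears on the fold changes was not tested. Dnajb11, the member with the smallest p, had the letters CCACG in its window, as did 22 of the 28 genes, 35.5% of all genes with a window and 50.9% of tested genes, but not the full element. The letters TGACGTGG, an element of XBP1 and ATF6, TGATGCAAT, a composite element of ATF4 and C/EBP factors, and a near copy of the full element that ends in CCACC were in 0 of the 28 windows and in 0.714%, 0.222% and 0.0814% of all genes. That says only that these letters are not in these windows.

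The IRE1 branch had 6 genes with negative and 4 with positive fold changes, and 0 past the test; its median of -0.039 was 0.0080 without antagomir replicate 1 and 0.0064 without vehicle replicate 1. Ern1, the gene of the sensor (ENSMUSG00000020715.9, chromosome 11, 106394650 to 106487852), had 9.85, 7.76 and 7.997 CPM in antagomir libraries and 9.17, 5.93 and 8.02 CPM in vehicle libraries. The groups overlapped and the log2 fold change of 0.15 had a wide interval of -0.62 to 0.92 (edgeR adjusted p = 0.965). Xbp1, the factor that IRE1 activates (ENSMUSG00000020484.18, chromosome 11, 5520659 to 5525893), had 80.9, 99.3 and 111 CPM in antagomir libraries and 98.6, 112 and 123 CPM in vehicle libraries. Antagomir replicate 1 was lowest and the other antagomir libraries lay inside the vehicle range (log2 fold change -0.20, 95% interval -0.58 to 0.19, edgeR adjusted p = 0.949). None of the 4 annotated Xbp1 transcripts removes the 26-base intron that IRE1 cuts out, since the shortest annotated intron has 300 bases, so spliced and unspliced Xbp1 could not be told apart in these estimates.

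Among the targets of XBP1, Dnajb9 (the co-chaperone ERdj4) averaged 48.4 ± 13.0 CPM in antagomir libraries and 50.4 ± 2.82 CPM in vehicle libraries, and Dnajc3, a co-chaperone that also restrains PERK, averaged 300.4 ± 62.2 CPM in antagomir libraries and 334 ± 48.8 CPM in vehicle libraries (SD, n = 3 each). Their log2 fold changes were -0.06 and -0.15, smaller than the SE of 0.21 and 0.19. In the degradation machinery, the derlins are membrane proteins of the channel that moves misfolded proteins out of the ER. Derl2 (ENSMUSG00000018442.13, chromosome 11, 71007164 to 71019841) had 71.4, 60.3 and 69.1 CPM in antagomir libraries and 83.4, 90.2 and 79.5 CPM in vehicle libraries. All antagomir libraries were below all vehicle libraries, by 8.09 CPM at the closest (log2 fold change -0.33, edgeR unadjusted p = 0.0473, adjusted p = 0.949). Derl2 shares exon sequence with Mis12 on the opposite strand, and the library kit does not mark strand, so its counts are uncertain. Mis12 held 277 to 680 counts per library, beside 901 to 1565 for Derl2. Derl1 had 146, 176.6 and 174 CPM in antagomir libraries and 176.9, 191 and 190.3 CPM in vehicle libraries. The groups were apart by only 0.289 CPM (log2 fold change -0.17, 95% interval -0.48 to 0.14, edgeR adjusted p = 0.949).

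Sel1l and Syvn1 encode the adaptor and the ubiquitin ligase (HRD1) of the same degradation complex. Sel1l averaged 225 ± 18.6 CPM in antagomir libraries and 212 ± 19.6 CPM in vehicle libraries, and Syvn1 averaged 86.7 ± 11.6 CPM in antagomir libraries and 81.0 ± 16.4 CPM in vehicle libraries (SD, n = 3 each). Both differences were smaller than the SD. Herpud1, which helps to assemble that complex, had 110.4, 92.4 and 125 CPM in antagomir libraries and 131, 86.4 and 85.0 CPM in vehicle libraries. Vehicle replicate 1 was the highest of all and the groups overlapped (log2 fold change 0.12).

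Edem1, a lectin that hands glycoproteins over for degradation, had 56.1, 67.5 and 52.7 CPM in antagomir libraries and 78.2, 62.2 and 38.3 CPM in vehicle libraries. The vehicle libraries held both its highest and its lowest value, and the log2 fold change was -0.02 ± 0.26 (SE). The shares of its transcripts are given as a description, picked after the values were seen. The protein-coding transcript Edem1-201 held 94.4%, 80.8% and 78.6% of the gene's TPM in antagomir libraries and 58.0%, 58.3% and 60.8% in vehicle libraries. The transcript Edem1-202, annotated as retaining an intron, held 0, 7.64% and 4.44% in antagomir libraries and 15.4%, 17.6% and 18.6% in vehicle libraries. The share of Edem1-201 thus averaged 84.6% ± 8.58 in antagomir libraries and 59.0% ± 1.55 in vehicle libraries (SD, n = 3 each; exact two-sided permutation p = 0.1, the smallest this design allows, and 0.873 adjusted over the 24 members with more than 1 transcript). The TPM of Edem1-201 itself was 15.8, 17.5 and 13.8 in antagomir libraries and 19.5, 14.8 and 9.09 in vehicle libraries, which overlap. With the length of the transcripts taken into account as an offset, the gene's fold change was -0.46. The share of the leading transcript did not overlap in 2 of these 24 members, near the 8.7% of 11167 genes with more than 1 transcript, so the count says nothing particular of the members. The other was Manf, with 68.5% ± 1.14 of TPM on Manf-201 in antagomir libraries and 73.7% ± 1.54 in vehicle libraries (SD, n = 3 each; exact permutation p = 0.1, 0.873 adjusted).

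In the PERK and ATF4 branch 8 of 8 genes had positive fold changes, and 0 passed the test. Without antagomir replicate 3 there were 6 of 8, and the branch median of 0.23 was 0.51 without antagomir replicate 2 and 0.14 without vehicle replicate 2. Eif2ak3, the gene of PERK (ENSMUSG00000031668.14, chromosome 6, 70844515 to 70905245), had 39.7, 47.7 and 28.6 CPM in antagomir libraries and 36.6, 35.4 and 34.5 CPM in vehicle libraries. Antagomir replicate 3 was the lowest and replicates 1 and 2 the highest, so the 3 vehicle values lay inside the antagomir range (log2 fold change 0.12, 95% interval -0.38 to 0.62, edgeR adjusted p = 0.958). Atf4, the factor made when eIF2alpha is phosphorylated and controlled largely at translation (ENSMUSG00000042406.8, chromosome 15, 80255184 to 80257541), had 81.7, 88.0 and 131 CPM in antagomir libraries and 105, 67.6 and 76.0 CPM in vehicle libraries. Antagomir replicate 3 was highest and vehicle replicate 1 next (log2 fold change 0.27, 95% interval -0.28 to 0.82, edgeR adjusted p = 0.949), and without antagomir replicate 3 the fold change was 0.042.

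Ddit3, which encodes the pro-apoptotic factor CHOP (ENSMUSG00000025408.15, chromosome 10, 127290774 to 127296288), had 20.9, 29.8 and 45.1 CPM in antagomir libraries and 31.5, 26.4 and 27.0 CPM in vehicle libraries. The antagomir libraries held both extremes (log2 fold change 0.17, 95% interval -0.48 to 0.83, edgeR adjusted p = 0.958), and without antagomir replicate 3 the fold change was -0.15. Exons of Ddit3 overlap those of Mars on the opposite strand, so its level is uncertain. Mars held 1049 to 1467 counts per library and Ddit3 344 to 794, so the overlapping gene held more counts than the member. Ppp1r15a (GADD34), which restores translation by bringing a phosphatase to eIF2alpha, had 234, 427 and 567 CPM in antagomir libraries and 418, 309 and 345 CPM in vehicle libraries. It had the same order among antagomir libraries as Ddit3, and its fold change of 0.20 was -0.11 without antagomir replicate 3.

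Among the metabolic targets of ATF4, Asns, the enzyme that makes asparagine (ENSMUSG00000029752.12, chromosome 6, 7675169 to 7693254), had 20.6, 8.23 and 13.6 CPM in antagomir libraries and 9.68, 8.38 and 7.62 CPM in vehicle libraries. Antagomir replicates 1 and 3 lay above all vehicle libraries and replicate 2 among them (log2 fold change 0.72, 95% interval -0.13 to 1.58, edgeR unadjusted p = 0.0875, adjusted p = 0.949). Without antagomir replicate 1 the fold change was 0.35. Sesn2, a stress-inducible regulator of the growth kinase mTORC1, had 22.1, 18.3 and 40.9 CPM in antagomir libraries and 18.2, 16.0 and 25.7 CPM in vehicle libraries. Its highest value was again in antagomir replicate 3, without which the fold change was 0.027 (log2 fold change 0.44 with all libraries, edgeR adjusted p = 0.949). Trib3, a pseudokinase that feeds back on ATF4, had 41, 41 and 43 counts in antagomir libraries and 40, 36 and 1 in vehicle libraries. Its groups did not overlap in CPM, by a gap of 0.189, and the fold change of 0.77 rested on vehicle replicate 3, which was under the floor of 3 counts, since it was 0.21 without that library. It was the only member of 32 that was higher with no overlap, where 5.06% of all genes tested were. Chac1, which breaks down glutathione, had 61, 3 and 23 counts in antagomir libraries and 57, 17 and 7 in vehicle libraries, and a log2 fold change of 0.18 with a 95% interval of -2.37 to 2.73.

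**Figure D4:**
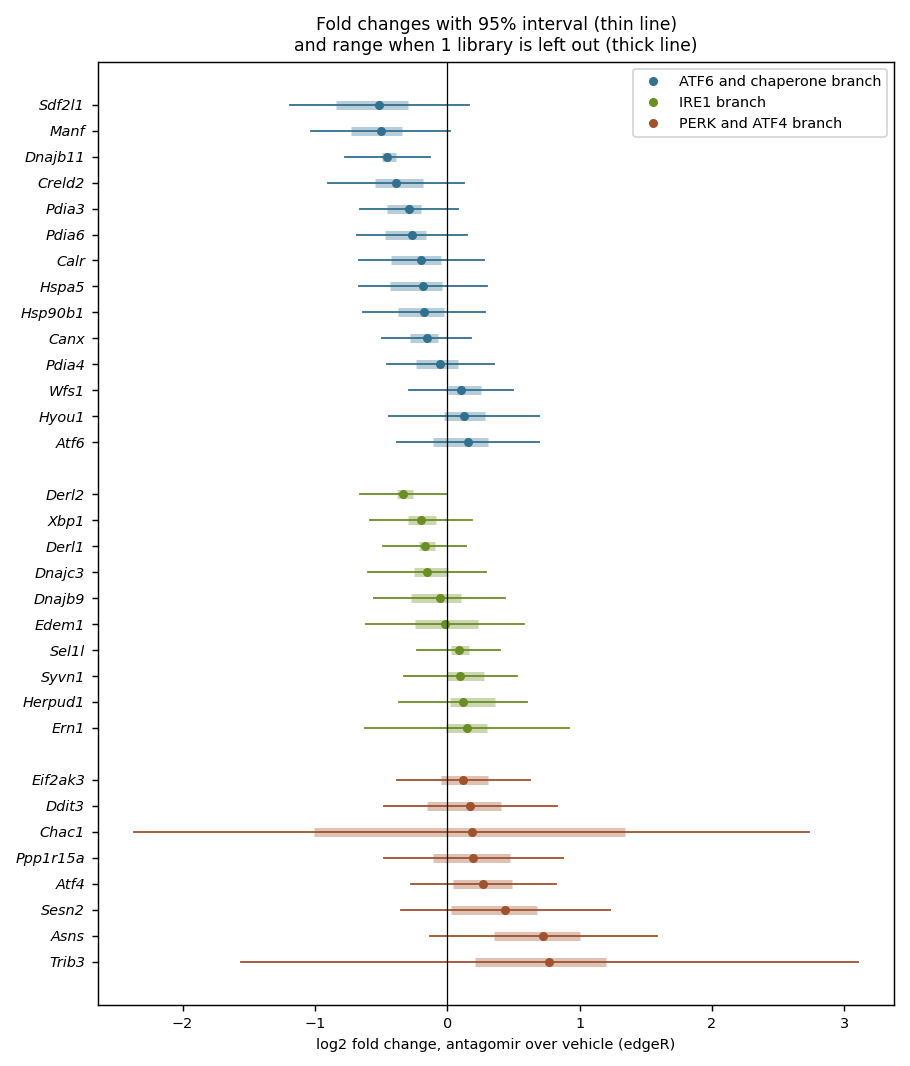
Log2 fold change of antagomir over vehicle for the 32 genes by branch (points), with the 95% interval from edgeR (thin lines) and the range over 6 fits that each leave out 1 library (thick lines). All 8 PERK and ATF4 branch points lie right of 0 and 11 of the 14 chaperone branch points left of it; the interval lies entirely below 0 for Dnajb11 and Derl2 before any adjustment for the 15012 genes tested.

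Side by side over the libraries, libraries of the same group differed from each other in each branch. In antagomir replicate 1, 11 of the 14 chaperone branch genes had their lowest value of all 6 libraries. Antagomir replicate 3 held the highest value of 6 of those 14 genes and of 4 of the 8 PERK and ATF4 branch genes. Each branch was given a score, the median of its genes' log2(CPM + 0.5) after centring each gene on its own mean. That score was -0.34, -0.21 and 0.20 in antagomir libraries and 0.093, 0.056 and 0.21 in vehicle libraries for the chaperone branch. The score of the PERK and ATF4 branch was 0.049, 0.0010 and 0.48 in antagomir libraries and 0.14, -0.21 and -0.17 in vehicle libraries, and that of the IRE1 branch kept within -0.057 and 0.11. The groups overlapped in all 3. The score of the immediate early and dissociation genes was -0.75, 0.38 and 0.78 in antagomir libraries and 0.035, -0.44 and -0.11 in vehicle libraries. Antagomir replicate 1 was thus lowest and replicate 3 highest in these genes too, as in Hspa5, Ddit3 and Ppp1r15a, and the part of tissue handling in those values was not tested.

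**Figure D5:**
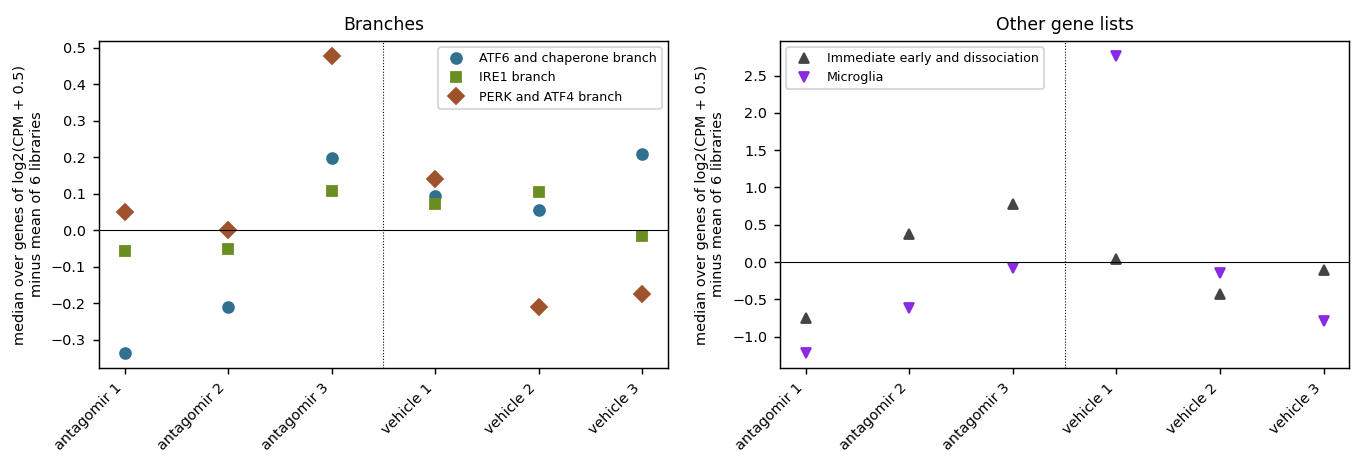
Median over the genes of each branch (left) and of 2 other lists (right) of log2(CPM + 0.5) minus the gene's mean over the 6 libraries, with 1 point per library and the antagomir libraries left of the dotted line. The chaperone branch and the immediate early genes are lowest in antagomir replicate 1, and the microglia genes stand out in vehicle replicate 1 at 2.77.

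Further genes of the pathway, from lists that do not include the 32, were read from the same test, and 0 of them passed. Among 16 other folding and oxidation genes 15 had negative fold changes (median -0.18), and 4 did not overlap and were lower: Pdia5, Fkbp2, the peroxide-using oxidation enzyme Prdx4 (-0.26) and the prolyl isomerase Ppib (-0.22). Over all genes tested 5.45% did not overlap and were lower. Pdia5, a disulfide isomerase of low level, had 0.365, 0.469 and 1.36 CPM in antagomir libraries and 5.46, 2.20 and 7.21 CPM in vehicle libraries. All antagomir libraries were below all vehicle libraries (log2 fold change -2.74 ± 0.77 SE, edgeR unadjusted p = 0.00724, adjusted p = 0.949). Fkbp2, a prolyl isomerase of the ER, had 44.8, 39.3 and 46.2 CPM in antagomir libraries and 50.5, 50.6 and 62.0 CPM in vehicle libraries. It too did not overlap, with a smaller log2 fold change of -0.32.

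The other degradation genes were 9 positive and 6 negative of 15 (median 0.021). Derl3, a further derlin gene, also induced by ER stress, had 4.26, 5.56 and 5.84 CPM in antagomir libraries and 9.39, 8.99 and 15.3 CPM in vehicle libraries. It was lower in all antagomir libraries, as were Derl1 and Derl2 (log2 fold change -1.11 ± 0.36 SE, edgeR unadjusted p = 0.0158, adjusted p = 0.949). Nploc4, a cofactor of the ATPase that pulls proteins from the ER, had 125, 122 and 115.8 CPM in antagomir libraries and 85.3, 115.7 and 79.9 CPM in vehicle libraries. It was higher without overlap, by a narrow gap (log2 fold change 0.37, edgeR adjusted p = 0.949). So was Man1b1, a mannosidase that trims glycoproteins, named after its values were seen (log2 fold change 0.40, edgeR adjusted p = 0.949). Thus 2 of the 15 were higher and 1 lower without overlap, beside 5.06% and 5.45% of all genes tested. Of 10 glycoprotein folding and transfer genes 6 were negative (median -0.063; Rpn2 -0.23 and Ddost -0.16, both of the oligosaccharyl transferase). Of 10 translocation genes 4 were negative (median 0.076). Ssr1 (0.25) and Ssr3 (-0.17), both of the translocon-associated complex, did not overlap, the former higher and the latter lower. Of 7 ATF6 family and protease genes 4 were negative (median -0.011), with Mbtps1 at 0.15 and Creb3 at -0.09.

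Of 25 further ATF4 targets 16 were positive, with a median of 0.052 and 0 that did not overlap. Mthfd2, an enzyme of mitochondrial folate metabolism, had 9.12, 14.7 and 17.8 CPM in antagomir libraries and 11.1, 4.40 and 6.55 CPM in vehicle libraries. Vehicle replicate 1 lay above antagomir replicate 1, so the groups overlapped (log2 fold change 0.92, edgeR adjusted p = 0.949). Atf3, which is also an immediate early gene, had 103, 435 and 719.8 CPM in antagomir libraries and 325, 164 and 233 CPM in vehicle libraries, with the order over antagomir libraries seen in Ddit3 and Ppp1r15a. Of 10 eIF2alpha pathway genes 6 were positive (median 0.12). The other eIF2alpha kinases differed in sign: Eif2ak1, the heme-regulated kinase, had 100.0, 83.1 and 87.2 CPM in antagomir libraries and 79.3, 59.4 and 63.3 CPM in vehicle libraries, while Eif2ak4, the kinase of amino acid shortage, had 20.7, 21.4 and 25.3 CPM in antagomir libraries and 27.6, 28.1 and 31.8 CPM in vehicle libraries. Neither overlapped between the groups (log2 fold changes 0.42 and -0.37, edgeR adjusted p = 0.949 and 0.949). Thus 1 of the 10 was higher and 1 lower without overlap, beside 5.06% and 5.45% of all genes tested. Of 5 IRE1 signalling genes 3 were negative (median -0.19), among them Map3k5, the kinase ASK1, at -0.74, and Traf2, its adaptor, at -0.30. Map3k5 was lower without overlap, and Traf2 overlapped between the groups.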

How the data were processed

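Groups and replicate numbers came from the sample titles, and the treatment label of each sample gives the same groups. Per the labels' protocols, the cDNA kit was SMART-Seq v4, a kit without strand marking. kallisto, sleuth and the build mm10 appear in the submitters' processing notes; their versions are not given in the sources used here. Per the file headers, the deposited tables hold estimated counts (expected counts) for each transcript, not normalized, with effective lengths and TPM values scaled by them. Reads that fit several transcripts were shared out by kallisto's model, which makes near-identical gene copies uncertain. Of 99567 transcripts 98294 (98.7%) matched GENCODE M21 by identifier, and the others held 0.524 to 0.586% of counts and were left out.

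Counts were summed per gene, rounded and tested in R 4.3.3 by the robust quasi-likelihood method of edgeR 4.0.16 (minimum count of 10 in filterByExpr, TMM factors, group as the only term, Benjamini-Hochberg over 15012 genes, threshold 0.05). The common biological coefficient of variation was 36.2%. On simulated counts, where 50 genes each were changed 1.5, 2, 4 and 8-fold, it recovered 1, 9, 32 and 39, with 5 false calls among 14715 genes tested. CPM uses TMM-scaled library sizes. No pair of libraries agreed within sampling noise (mean chi-square per gene 23.5 to 98.4 over 15 pairs). Intervals of fold changes are 95% intervals from that fit. The genes, branches and lists were chosen with earlier results of these data known. Named are all 32 genes, in full per library those with the 8 smallest p, the sensors, Xbp1, Atf4, Ddit3, Hspa5 and genes whose groups do not overlap, and 2 genes with the smallest p of each further list. Values per library of Hsp90b1, Calr, Pdia4, Edem1, Herpud1, Ppp1r15a and Sesn2 and the genes Prdx4, Ppib, Man1b1 and Egfr were added after their values were seen. Alternatives were RLE factors, a transcript length offset, other filters, limma 3.58.1 on log2(TPM + 1) and log2(TPM + 0.1), DESeq2 1.42.0, the replicate number as a block, and each library left out.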

Additional observations from a re-analysis of the deposited data

How the results depend on the processing

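Under 14 alternatives to the edgeR fit, 0 of the 32 genes were called, with a smallest adjusted p among them of 0.478. The 446 fold changes of members kept their sign in 427 cases and 20 members never changed sign; DESeq2 called 1 gene of all genes, against 0 with edgeR. Filtering at a mean of 50 counts removed Trib3 and Chac1. With the transcript length offset, Derl2 had a log2 fold change of -0.49, Edem1 of -0.46 and Asns of 1.05. The median of the chaperone branch was -0.43 to -0.081 when 1 library was left out (lowest without antagomir replicate 3, highest without antagomir replicate 1), and that of the PERK and ATF4 branch was 0.14 to 0.51 (lowest without vehicle replicate 2, highest without antagomir replicate 2). These members changed sign in at least 1 leave-out, with lowest and highest log2 fold changes of -0.11 to 0.31 for Atf6, -0.23 to 0.078 for Pdia4, -0.025 to 0.29 for Hyou1, -0.0082 to 0.30 for Ern1, -0.28 to 0.10 for Dnajb9, -0.25 to 0.0068 for Dnajc3, -0.25 to 0.23 for Edem1, -0.0023 to 0.28 for Syvn1, -0.048 to 0.31 for Eif2ak3, -0.15 to 0.40 for Ddit3, -1.005 to 1.34 for Chac1 and -0.11 to 0.48 for Ppp1r15a; the cause was not tested. All 8 PERK and ATF4 branch genes were positive without vehicle replicate 1, 6 of 8 without antagomir replicate 3 and 7 of 8 without each other library. Same-numbered libraries of the 2 groups had deviations correlated at 0.195, 0.075 and 0.028, not all over 0.1, so the numbers were not taken as pairs. Of 6 libraries 3 correlated best with their own number, and both replicate 1 libraries had the highest neuroblast sums of their group (2406 CPM antagomir, 1556 CPM vehicle), so a shared origin was not settled. With the replicate block, edgeR called 0 genes, and the smallest adjusted p over all genes was 0.210 against 0.949 without it. With the block 1284 genes (8.55% of those tested) had an unadjusted p under 0.05, against 616 (4.1%) without it. Of the members 5 did, against 2, and the fold change of Edem1 with the block was 0.031. In the simulation over genes drawn at random, changes of 2-fold or less were mostly missed (9 of 50 recovered at 2-fold). Trib3 and Chac1 rested on 1 to 61 counts per library, and the spliced form of Xbp1 could not be measured.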
